A study of Homo sapiens with 9 samples.

Results

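The replication-dependent histone genes supply the H1, H2A, H2B, H3 and H4 proteins that package newly made DNA. They were taken here as the protein-coding genes of GENCODE v44 on chromosomes 1, 6 and 12 whose symbols are H1-1 to H1-6 or H2AC, H2BC, H3C or H4C followed by a number. This gave 69 of 20033 protein-coding genes: 6 H1, 17 H2A, 18 H2B, 13 H3 and 15 H4 genes. A promoter was the Ensembl canonical transcription start site (TSS) with 500 bp on each side. A gene is called open here when a peak overlapped its promoter in all 9 libraries, and closed when no list held a peak there.

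The cells were MDA-MB-231, a human triple-negative breast cancer line, and their accessible DNA was read by ATAC-seq, in which the Tn5 transposase cuts open chromatin. Cells carrying a lentiviral control shRNA (shCtrl), an shRNA against EZH2 (shEZH2) or one against E2F1 (shE2F1) gave 2 libraries each, and an shRNA against SUZ12 (shSUZ12), DMSO and the EZH2 inhibitor GSK126 gave 1 library each. The lentivirus was left on all shRNA cells for 24 h, and puromycin selection at 2 µg/ml lasted 72 h. The DMSO library carries the treatment tag WT and received no shRNA. EZH2 and SUZ12 are subunits of the Polycomb complex PRC2, which methylates histone H3 on lysine 27, and E2F1 is a transcription factor of the G1 to S transition. The study asked how loss of EZH2 or E2F1 changes accessibility. The sources do not say whether replicates came from separate cultures, so differences between them may be technical.

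Replication-dependent histone genes are transcribed mainly in S phase. They lack introns, and their mRNAs end in a stem-loop in place of a poly(A) tail. They lie in clusters, where many H2A and H2B genes stand back to back and share one promoter region. The octamer element is known from H2B promoters, the CCAAT box binds NF-Y, and HINFP binds H4 promoters. E2F factors act at the G1 to S transition on many genes of DNA replication. H3 and H4 form the tetramer at the centre of the nucleosome, H2A and H2B join it as dimers, and H1 binds the linker DNA.

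The promoter sequences of open and closed genes can be read side by side. H4C8 was open and H4C5 was closed, and both encode the same H4 protein. These 2 promoters were 61.3% identical, position by position without gaps, from 250 bases before to 50 bases after the TSS. The 150 bases before each TSS are shown 5′ to 3′ on the gene's strand (GRCh38), and capitals mark the HINFP core CGGAC, the TATA box TATAAA, the CCAAT box CCAAT, the octamer ATTTGCAT and the E2F words TTTGGCGC, TTTCCCGC, TTTGCCGC and TTTCGCGC on either strand. H4C8 lies at chr6:26285535-26285684 on the minus strand, H4C5 at chr6:26204460-26204609 on the plus strand and H4C11, the open gene with the highest shCtrl percentile, at chr6:27823942-27824091 on the plus strand.
H4C8, open: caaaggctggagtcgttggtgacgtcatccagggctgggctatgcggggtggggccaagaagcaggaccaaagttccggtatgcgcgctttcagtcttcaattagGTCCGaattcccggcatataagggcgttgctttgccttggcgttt
H4C5, closed: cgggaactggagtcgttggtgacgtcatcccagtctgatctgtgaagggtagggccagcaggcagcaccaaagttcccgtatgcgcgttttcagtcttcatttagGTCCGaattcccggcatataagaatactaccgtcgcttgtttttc
H4C11, open: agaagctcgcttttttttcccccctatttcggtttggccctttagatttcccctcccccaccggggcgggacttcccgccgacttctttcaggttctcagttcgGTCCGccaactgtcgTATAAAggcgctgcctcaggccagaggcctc

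The linker histone genes H1-4, open, and H1-3, closed, are shown because both carry the CCAAT box and the TATA box at like distances from the TSS. For the H1 genes the capitals mark the TATA box, CCAAT box, octamer and E2F words. H1-4 lies at chr6:26156179-26156328 on the plus strand and H1-3 at chr6:26234988-26235137 on the minus strand.
H1-4, open: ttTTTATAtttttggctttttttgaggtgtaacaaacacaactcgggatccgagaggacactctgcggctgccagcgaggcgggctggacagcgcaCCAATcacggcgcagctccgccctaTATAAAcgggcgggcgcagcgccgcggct
H1-3, closed: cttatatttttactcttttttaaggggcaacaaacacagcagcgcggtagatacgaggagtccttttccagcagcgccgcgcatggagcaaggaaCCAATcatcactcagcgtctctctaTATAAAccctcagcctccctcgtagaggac

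The spacers between the TSSs of 2 divergent H2A and H2B pairs are shown because one was spanned by a peak in all 9 libraries and the other held none. The open spacer of H2BC11 and H2AC11 is at chr6:27132796-27133042 and the closed spacer of H2BC8 and H2AC8 is at chr6:26216689-26216920, both on the plus strand with the H2B gene to the left. Capitals are as for the H1 genes.
H2BC11 and H2AC11, open: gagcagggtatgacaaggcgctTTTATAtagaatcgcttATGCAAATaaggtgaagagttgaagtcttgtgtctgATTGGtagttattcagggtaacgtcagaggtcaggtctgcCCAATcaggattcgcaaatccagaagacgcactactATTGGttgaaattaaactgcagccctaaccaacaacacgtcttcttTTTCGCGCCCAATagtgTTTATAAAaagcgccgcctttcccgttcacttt
H2BC8 and H2AC8, closed: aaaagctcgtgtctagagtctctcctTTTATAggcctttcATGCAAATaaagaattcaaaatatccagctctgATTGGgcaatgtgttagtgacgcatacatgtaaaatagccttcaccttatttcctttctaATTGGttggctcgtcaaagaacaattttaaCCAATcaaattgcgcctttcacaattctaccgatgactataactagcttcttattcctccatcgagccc

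Both spacers held an octamer and CCAAT boxes. The open spacer held 4 CCAAT boxes, 1 octamer, 1 E2F word and the TATA box word 3 times. Of these 3 TATA words, 2 overlapped on opposite strands in 1 marked stretch. The closed spacer held 1 TATA box, 3 CCAAT boxes, 1 octamer and no E2F word. From 250 bases before to 50 bases after the TSS, the HINFP core occurred 1 time at H4C8, 2 times at H4C5 and 1 time at H4C11.

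The lists held 58626 to 85812 peaks per library. The fold enrichment of a peak is the authors' ratio of its summit over a local background, and it is given here as a percentile, the percent of the peaks in the same list with a value at or below it. The fold enrichment and p of each peak also fix how many whole tags stood at the summit and the mean of the background. The commonest background, 1.41 to 2.18 tags, is called the genome background and follows depth. In each list 1.14 to 1.27% of the peak numbers were not in the list, and those peaks were not analysed here. In all 9 libraries, 7 of 7 mesenchymal-like markers (such as VIM and AXL) had a promoter peak, and none of 5 markers of blood, liver, endothelial and glial cells had one in any library. Of 7 luminal markers, 2 (ERBB2 and KRT19) had one in all 9. ESR1 had a peak in 8 libraries, FOXA1 in 7, CDH1 in 6, PGR in 4 and GATA3 in 0. Over all protein-coding genes 58.1% had a peak in all 9, so these peaks alone do not separate mesenchymal-like from luminal cells. The EZH2, E2F1 and SUZ12 promoters were open in all 9, which says nothing about how far the knockdowns went.

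Of the 69 histone genes, 41 were open in all 9 libraries (59.4%), 24 were closed in all 9 (34.8%) and 4 had a peak in 1 to 8 libraries. Over all protein-coding genes, 58.1% were open in all 9, 31.3% were closed and 10.6% were in between. The share of open histone genes was thus near that of all genes. In such bulk libraries, fewer cells with an accessible site and less access per cell cannot be told apart. Each library alone gave 42 to 45 histone genes with a peak. By family, the open genes were 2 of 6 H1, 12 of 17 H2A, 11 of 18 H2B, 7 of 13 H3 and 9 of 15 H4 genes, so every family held open and closed members.

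Among the linker histone genes, H1-2 and H1-4 were open, and H1-1, H1-3, H1-5 and H1-6 were closed. H1-6 encodes the testis-specific linker histone. The percentile of H1-2 was 43.7 and 50.1 in shCtrl, 29.3 and 37.6 in shEZH2, 47.0 and 62.0 in shE2F1, 55.0 in shSUZ12, 59.7 in DMSO and 52.3 in GSK126. That of H1-4 was 27.8 and 27.03 in shCtrl, 29.7 and 34.9 in shEZH2, 4.6 and 35.4 in shE2F1, 45.9 in shSUZ12, 31.5 in DMSO and 31.3 in GSK126. In 8 of 9 libraries H1-4 shared 1 wide peak with H2BC5, whose summit lay 1533 to 1655 bp downstream of the H1-4 TSS. In the first shE2F1 library the peak at H1-4 was separate, 593 bp wide with its summit 8 bp from the TSS. At H1-2 the summit lay 937 and 918 bp downstream of the TSS in shCtrl, and 932 and 5 bp in shEZH2. It lay 1347 and 933 bp downstream in shE2F1, 918 bp in shSUZ12, 41 bp in DMSO and 34 bp in GSK126. The H1-2 percentiles thus do not all read the same position.

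The closed core histone genes were H2AC7, H2AC8, H2AC16, H2AC25, H2BC7, H2BC8, H2BC9, H2BC10, H2BC26, H3C4, H3C6, H3C7, H3C8, H3C11, H4C4, H4C5, H4C6, H4C7, H4C9 and H4C13. Of all 24 closed genes, none had a peak within 1000 bp of its TSS in any library, 1 had one within 2000 bp and 8 within 5000 bp. A promoter with no peak is one where no signal passed the caller's threshold at this depth, and not one shown to be inaccessible.

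The 4 genes in between had small or single-library peaks. H2AC1 and H2BC1 encode testis histones. H2AC1 had a peak in 3 libraries, with 11, 10 and 15 tags in the first shCtrl, the second shE2F1 and the shSUZ12 library. H2BC1 had one in 4 libraries with 11 to 19 tags. H2BC6 had a peak in every library but the first shEZH2 one, and its tags were 21 and 27 in shCtrl, 13 in the second shEZH2 library, 15 and 29 in shE2F1, 30 in shSUZ12, 15 in DMSO and 21 in GSK126. Its summit lay 38 to 81 bp upstream of the TSS, and its tags were below the 76 to 268 of the open genes in the first shCtrl library. H3C12 had its single peak in the first shCtrl library, 200 bp wide with 71 tags.

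**Figure D1:**
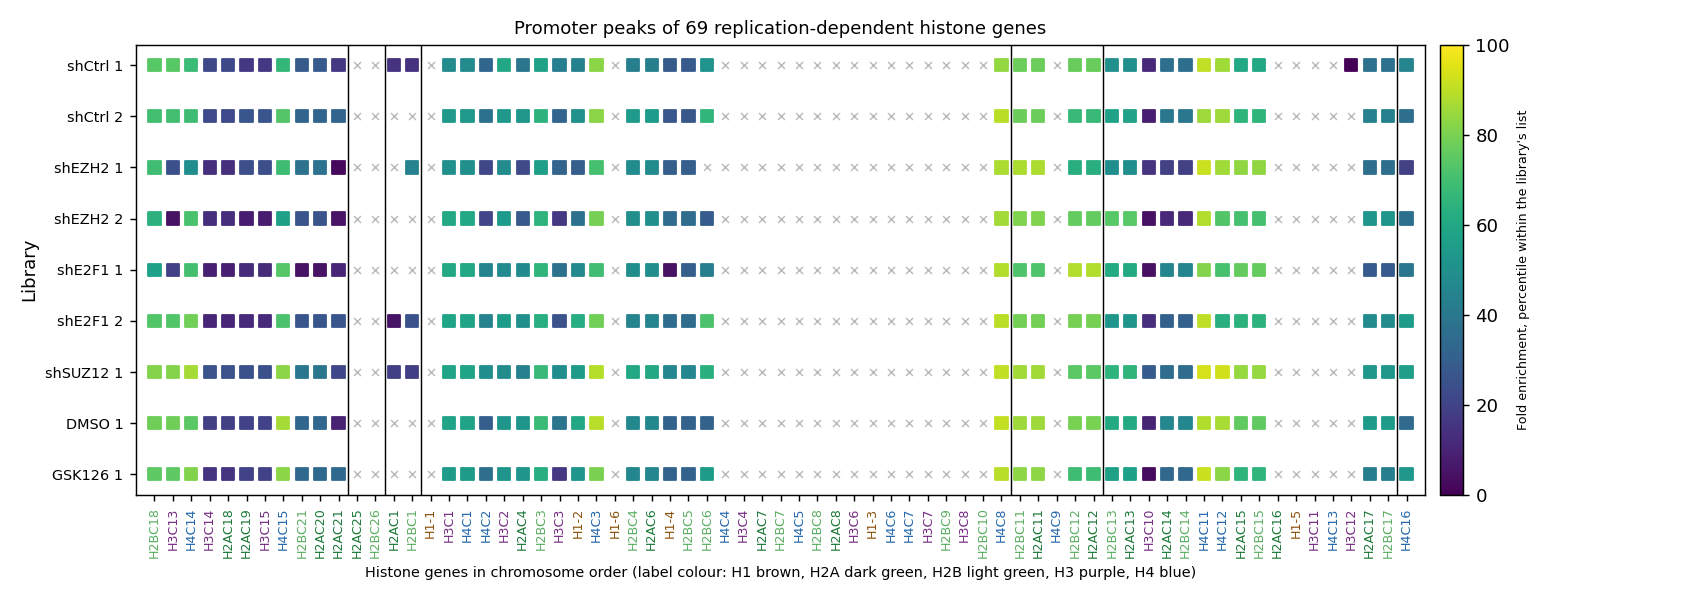
Promoter peaks of the 69 histone genes, in chromosome order on the horizontal axis, in the 9 libraries on the vertical axis. Coloured squares give the percentile of the fold enrichment, grey crosses mark no peak and vertical lines separate the clusters. The 15 genes from H4C4 to H2BC10 have crosses in every library, and H4C8 beside them has squares in all 9.

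The open and closed genes lay in runs along the chromosomes. Genes less than 200 kb apart formed 7 clusters. The cluster on chromosome 1 from 149812370 to 149887965 held 11 genes, all open. The pair H2AC25 and H2BC26 at 228457873 and 228458103 on chromosome 1 was closed. The largest cluster, on chromosome 6 from 26017787 to 26285534, held 32 genes, of which 14 were open, 17 closed and 1 (H2BC6) in between. The cluster from 27132795 to 27147106 held 4 open genes and the closed H4C9. The cluster from 27807929 to 27893425 held 11 open genes, 4 closed genes and H3C12. H4C16, alone on chromosome 12, was open. H2AC1 and H2BC1 stood alone at 25726562 and 25726777 on chromosome 6.

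In the largest cluster, 15 closed genes stood in a row over 83.8 kb, from the H4C4 TSS at 26189112 to the H2BC10 TSS at 26272931. The row held genes of all 5 families, including the H1-3 linker histone gene, 4 H4, 4 H3, 4 H2B and 2 H2A genes. H4C8, at 26285534, was open on one side of it, and H2BC6, with its small peak, stood on the other. A second row of 4 closed genes, H2AC16, H1-5, H3C11 and H4C13, spanned 8.22 kb. The other closed genes stood as single genes (H1-1, H1-6 and H4C9) or as the H2AC25 and H2BC26 pair.

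The 15-gene row held 2 sites with peaks, and neither was at a promoter. One, between 26205710 and 26206650, was present in 9 libraries with 19 to 53 tags and its summit lay 1405 to 1488 bp from the H4C5 TSS. The other, between 26268887 and 26269295, was present in 7 libraries with 13 to 49 tags and its summit lay 2313 to 2361 bp from the H3C8 TSS. The 2 libraries without the second site were both shEZH2 libraries. Its tags were 23 and 23 in shCtrl, 35 and 49 in shE2F1, 16 in shSUZ12, 17 in DMSO and 13 in GSK126. This site was singled out after its values were seen, and the difference was not tested.

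The local background of a peak reads the tags around it, those of a wide peak included. The lists give it only where there is a peak, so the 15 closed genes have no value of their own, and it was read at the 2 small sites between them. At the 41 open genes it was 6.25 to 23.8 times the genome background in the first shCtrl library and 6.66 to 25.4 times in the second. At the site near H4C5 it was 1.49 and 1.20 times the genome background in the 2 shCtrl libraries, and 1.08 to 1.55 times over all 9. At the site near H3C8 it was 1.13 and 0.999 times in shCtrl, and 0.998 to 1.71 times over the 7 libraries. At H2BC6 it was 1.17 and 1.00 times in shCtrl. The ranges of the open genes and of these 3 sites did not overlap in either shCtrl library. No ratio at these 3 sites lay below 0.998 in any library. A ratio near 1 may thus be the lowest value the lists can give, and not a measured local value. This was not tested. H3C12 differed from them: its single peak had a local background 15.7 times the genome background, with 28.1 tags, beside 28.8 tags at the neighbouring open gene H2AC17.

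**Figure D2:**
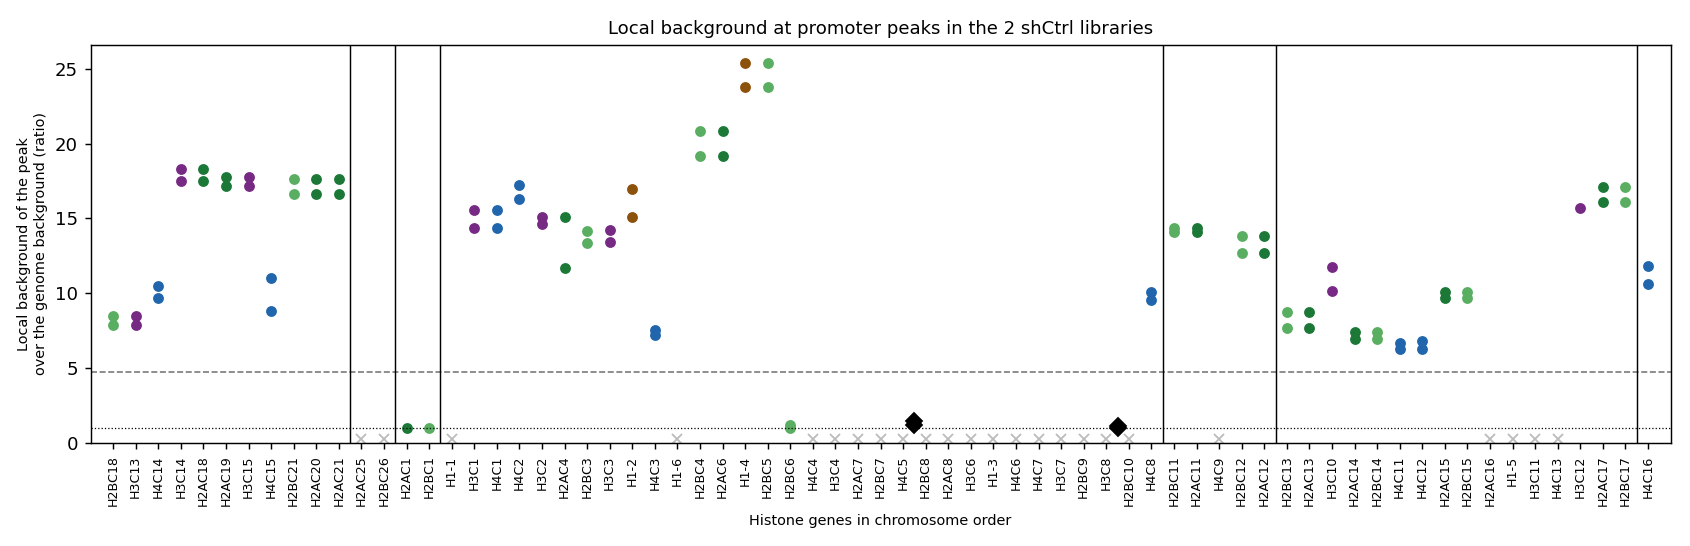
Local background of the promoter peak over the genome background (ratio, vertical axis) for each histone gene in chromosome order, 1 point for each of the 2 shCtrl libraries, coloured by family as in the plot of peaks by gene. Black diamonds are the peaks within the 15-gene closed row, grey crosses are genes with no peak in either library, the dashed line is the median of all open promoters in the first shCtrl library (4.76) and the dotted line is a ratio of 1. The open genes lie at 6.25 or above, and the diamonds lie at 0.999 to 1.49.

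The open histone genes ranked low by fold enrichment and high by tags. The median percentile of fold enrichment of the 41 open genes was 45.2 and 54.0 in the shCtrl libraries, against 77.8 and 79.6 over all 11645 promoters open in all 9. By the number of tags at the summit, the medians were 97.2 and 97.8 against 87.9 and 88.6. The median number of tags was 161 and 212 against 98 and 119. The local background gave a median of 13.4 and 14.4 times the genome background for the histone genes, against 4.76 and 4.67 over all open promoters. In these 2 libraries 31 and 32 of the 41 genes lay above the 90th percentile of all open promoters (9.42 and 9.31 times). Their peaks were also wide, with a median of 1390 and 1767 bp against 1047 and 1074 bp. Neighbouring genes often shared a peak. The 45 and 42 histone genes with a peak in these 2 libraries read 31 and 27 distinct peaks. The medians and counts here weigh a shared peak once per gene, so they hold fewer separate signals than genes.

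The same order held in all 9 libraries. Over them the median fold enrichment percentile of the open histone genes was 45.2 to 58.5, below 74.1 to 82.7 for all open promoters, and the median tag percentile was 95.2 to 98.0, above 81.9 to 88.7. The local background at histone genes was 13.4 and 14.4 times the genome background in shCtrl, 10.0 and 10.5 times in shEZH2, 8.65 and 9.93 times in shE2F1, 13.6 times in shSUZ12, 15.8 times in DMSO and 17.5 times in GSK126. Both knockdowns with 2 libraries lay below both shCtrl libraries in this median. The median over all open promoters was also lower there, at 3.87 and 3.73 times in shEZH2 and 3.57 and 3.84 times in shE2F1.

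**Figure D3:**
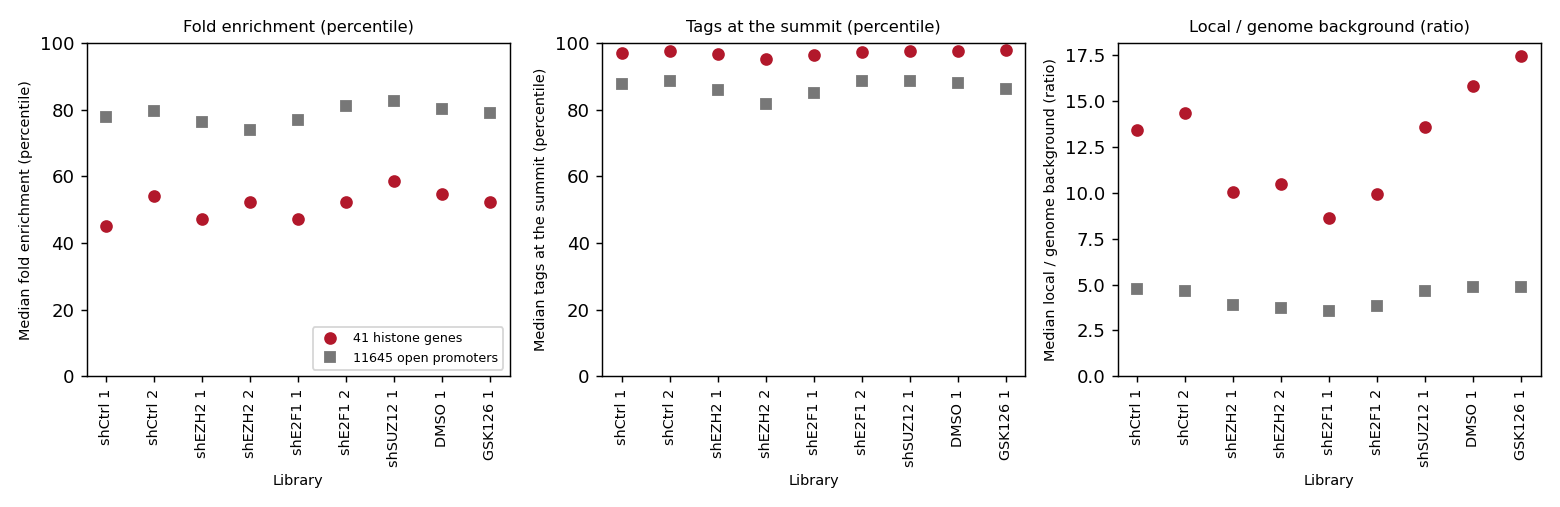
Medians by library (horizontal axis) of the fold enrichment percentile, the percentile of tags at the summit and the ratio of local to genome background, for the 41 open histone genes (red circles) and all 11645 open promoters (grey squares). In every library the circles lie below the squares for fold enrichment and above them for tags and for local background.

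By family, the median shCtrl percentile of fold enrichment was 69.8 for the 9 open H4 genes, 53.6 for the 11 H2B genes, 43.1 for the 12 H2A genes, 37.1 for the 7 H3 genes and 37.1 for the 2 H1 genes. The family ranges overlapped, from 35.1 to 88.0 for H4 and from 9.94 to 71.8 for H3. The H4 genes had the lowest median local background, 9.89 times the genome background, against 13.7 for H2B, 14.9 for H3, 15.4 for H2A and 20.3 for H1.

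The 3 highest shCtrl percentiles belonged to H4 genes. H4C11 had 90.5 and 85.5 in shCtrl, 91.9 and 88.5 in shEZH2, 81.3 and 90.2 in shE2F1, 93.7 in shSUZ12, 88.6 in DMSO and 92.1 in GSK126. H4C8 had 83.7 and 89.7 in shCtrl, 87.5 and 86.1 in shEZH2, 88.3 and 89.7 in shE2F1, 90.3 in shSUZ12, 90.9 in DMSO and 89.1 in GSK126. H4C12 had 85.7 and 85.5 in shCtrl. H4C11 and H4C8 thus stayed above the 81st percentile in every library.

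The 3 lowest belonged to H3C10 and the pair H2AC19 and H3C15. H3C10 had 11.3 and 8.5 in shCtrl, 15.2 and 4.0 in shEZH2, 4.3 and 13.5 in shE2F1, 28.6 in shSUZ12, 10.1 in DMSO and 2.9 in GSK126, and its tags in shCtrl were 77 and 97. H2AC19 and H3C15 shared 1 peak with percentiles of 16.1 and 26.95 in shCtrl, yet that peak had 144 and 191 tags and a local background 17.8 and 17.1 times the genome background.

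Some of these genes are near-identical copies, and the authors' alignment could report a read at several places. Of the 50-base words within 500 bp of the TSS, none was unique in chromosomes 1 to 22, X and Y for H2AC18, H2AC19, H3C14, H3C15, H4C14 and H4C15, and the promoters of H4C14 and H4C15 were 100% identical. The values of these 6 genes cannot be told apart from those of their copies. For H3C13 27.1% of the words were unique and for H2BC18 40.1%. The promoters of H4C11 and H4C12 were 98.3% identical, and 56.7% of the words of each were unique, so their values may hold reads of the other. At the closed genes 85.6% or more of the words were unique. Among the 61 histone genes with at least 50% unique words, 33 were open (54.1%) and 24 closed.

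Of 13 divergent pairs with TSSs at most 1000 bp apart, 12 joined an H2A and an H2B gene, and H3C7 and H2BC9 formed the other. Among H2A and H2B pairs the spacing was narrowest at H2AC15 and H2BC15, 194 bp, and widest at H2BC12 and H2AC12, 251 bp. The median over all 13 was 240 bp. In 7 pairs 1 peak spanned both TSSs in all 9 libraries, and in 4 pairs (H2AC25 and H2BC26, H2AC7 and H2BC7, H2BC8 and H2AC8, H3C7 and H2BC9) no library had a peak at either TSS. No pair had a gene open and its partner closed, but the promoter windows largely fix this agreement. They reach 500 bp to each side of a TSS. In the H2A and H2B pairs, with TSSs 194 to 251 bp apart, the windows of both partners share most of their bases. Whether partners open separately was thus not tested. The 26 genes in pairs included 16 open and 8 closed genes, and the 43 genes outside pairs included 25 open and 16 closed ones.

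In the 7 spanned pairs the summit lay between the TSSs in 54 of 63 cases, each 1 pair in 1 library. At H2BC11 and H2AC11 the summit was 53 or 54 bp upstream of the H2BC11 TSS in all 9 libraries, with 268 and 337 tags in shCtrl, 235 and 167 in shEZH2, 114 and 220 in shE2F1, 372 in shSUZ12, 374 in DMSO and 330 in GSK126. At H2BC4 and H2AC6 the summit lay outside the spacer in 7 of 9 libraries, 820 to 890 bp downstream of the H2BC4 TSS. H2AC14 and H2BC14 shared 1 peak in every library, which reached both TSSs in 7 of 9. The second shEZH2 and the first shE2F1 library were the exceptions.

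**Figure D4:**
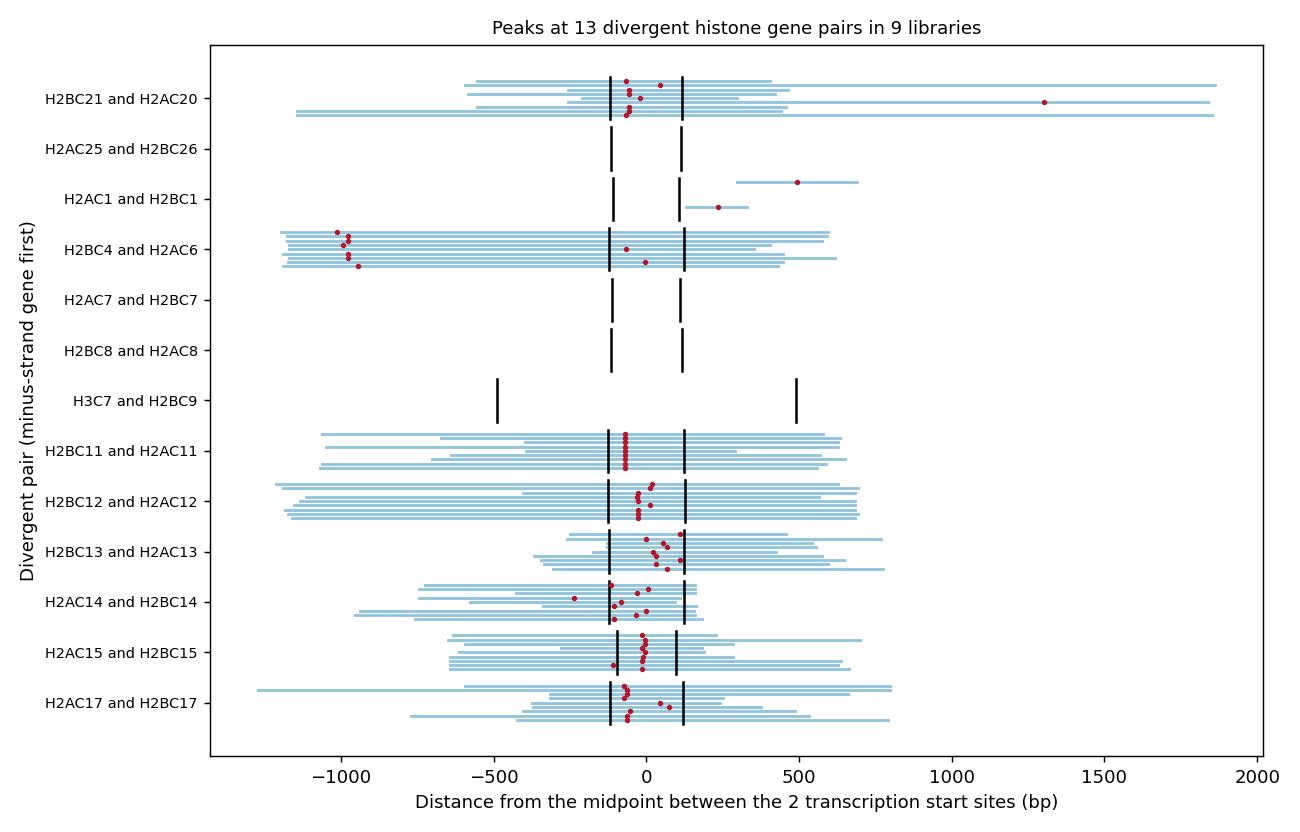
Peaks at the 13 divergent pairs, with distance from the midpoint between the 2 TSSs on the horizontal axis. Each blue line is the peak of 1 library (shCtrl 1 at the top, GSK126 at the bottom of each row), drawn where both genes took the same peak, red dots are summits and black bars are the TSSs. For H2BC11 and H2AC11 the 9 summits stand at 1 place within the spacer, and 4 pairs have no line.

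From 250 bases before to 50 bases after the TSS, the histone promoters had a lower GC content than other promoters, with a median of 43.7% for the 41 open and 43.3% for the 24 closed histone genes, 66.7% for all open genes and 53.7% for all closed genes. The ratio of observed to expected CpG had a median of 0.86 for open and 0.72 for closed histone genes, against 0.86 and 0.32 for all open and all closed genes. The TATA box word TATAAA was in 32 of the 41 open and 10 of the 24 closed histone promoters, against 9.71% of all promoters, 4.59% of all open ones and 19.3% of all closed ones. Among H2A and H2B genes it was in 20 of 23 open and 2 of 9 closed promoters, where the pairs share their sequence. These counts are descriptions, since paired genes are not independent.

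CCAAT was in 34 of 41 open and 21 of 24 closed promoters, against 36.1% of all promoters. The octamer ATTTGCAT was found only at H2A and H2B genes among the 65, in 16 of the 23 open and 7 of the 9 closed ones, against 1.62% of all promoters. An E2F word was in 14 of 41 open and 5 of 24 closed promoters, against 4.36% of all. Among H2A and H2B genes it was in 11 of 23 open and 1 of 9 closed promoters, and among H4 genes in 3 of 9 open and 3 of 6 closed ones. The HINFP core CGGAC, a short word found in 37.1% of all promoters, was in 9 of 9 open and 5 of 6 closed H4 promoters. H4C7, which encodes the divergent H4-like protein H4G, was the H4 gene without it.

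With EZH2 depletion no histone gene gained or lost a promoter peak, where gain means a peak in both shEZH2 and neither shCtrl library. Over all genes 0.0699% gained and 1.02% lost one. With E2F1 depletion none gained or lost one either, against 0.155% and 0.634% of all genes.

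Of 41 histone genes with a peak in the 4 shEZH2 and shCtrl libraries, both shEZH2 percentiles lay above both shCtrl ones for 6, against 10.6% of all promoters tested, and below them for 11, against 29.7%. The 6 higher genes were H1-4 with H2BC5, H2BC11 with H2AC11, and H2AC15 with H2BC15, each pair reading 1 peak. The 11 lower genes were H1-2, H2AC4, H2AC14, H2AC18, H2AC21, H2BC14, H2BC18, H3C13, H3C14, H4C2 and H4C3. Among these, H2AC18 and H3C14 had no unique 50-base word, so their values cannot be told apart from those of their copies. At H3C13 27.1% and at H2BC18 40.1% of the words were unique, so the values of these 2 genes may hold reads of copies. With 2 libraries against 2, an exact permutation test cannot give a two-sided p below 0.333. With the same number of top peaks in every list, 11 genes were higher (23.6% of all promoters) and 4 lower (14.7%), so the split turned with the length of the lists. Ranked by −log10 p, 0 genes were higher (4.04% of all promoters) and 22 lower (42.2%). Ranked by tags, 0 were higher (3%) and 22 lower (45.7%).

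The largest differences were at H3C13, which encodes H3.2, and at the pair H2AC14 and H2BC14. H3C13 had percentiles of 74.0 and 69.6 in shCtrl (71.8 ± 3.12, SD, n = 2) and 24.2 and 4.4 in shEZH2 (14.3 ± 14.04, SD, n = 2). In both shCtrl libraries H3C13 and H2BC18 read 1 peak, 2173 and 2177 bp wide, and its summit lay 1208 and 1209 bp from the H3C13 TSS, upstream of H2BC18. In the shEZH2 libraries the peaks at H3C13 were 237 and 934 bp wide with summits 30 bp upstream and 775 bp downstream of its TSS, and H2BC18 kept percentiles of 69.4 and 63.9. The first shE2F1 library also had separate peaks there. H2AC14 and H2BC14 had 36.0 and 40.2 in shCtrl and 19.4 and 11.4 in shEZH2, with 76, 102, 51 and 34 tags. Of the 11 lower genes, 3 (H2BC18, H4C2 and H4C3) kept their summits within 150 bp in the 4 libraries, and of the 6 higher genes all 6 did. Over all promoters with such summits 11.6% were higher and 28.6% lower. Such summits need not be near the TSS, and at H1-4 they lay 1533 to 1654 bp downstream of it.

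By limma on the log2 fold enrichment, over 11682 promoters with a peak in the 6 shCtrl, shEZH2 and shE2F1 libraries, none of 41 histone genes passed an adjusted p (Benjamini-Hochberg) of 0.05 with shEZH2, as for all promoters (0 called, 0%). At an unadjusted p under 0.05 there were 810 promoters in all and 4 histone genes. These were H3C13 (log2 fold change −0.96, SE 0.22, limma adjusted p = 0.426), H2AC15 with H2BC15 (0.40, SE 0.15, limma adjusted p = 0.685) and H2BC5 (0.31, SE 0.14, limma adjusted p = 0.713). The median log2 difference was 0.11 over the histone genes and 0.02 over all promoters fitted.

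With E2F1 depletion, 7 of 42 genes were above both shCtrl libraries, against 19.2% of all promoters tested, and 8 were below, against 16.9%. Ranked by −log10 p, 1 gene was higher (12.4% of all promoters) and 10 lower (22.7%). Ranked by tags, 1 was higher (12.3%) and 11 lower (23.6%). The 7 higher genes were H2AC12 with H2BC12, H3C1 with H4C1, H2BC5, H4C2 and H4C14. The 8 lower genes were H2AC18 with H3C14, H2AC19 with H3C15, H2AC20 with H2BC21, H4C3 and H4C12. Of the lower genes, H2AC18, H3C14, H2AC19 and H3C15 had no unique 50-base word, and neither had H4C14 among the higher. The values of these genes cannot be told apart from those of their copies, so the counts hold fewer separate signals than genes. E2F words were in 4 of the 7 higher, 1 of the 8 lower and 14 of all 42 promoters, and H2AC12 and H2BC12 shared 1 such word. Ranked by tags, they were in 0 of 1 higher and 5 of 11 lower genes. Ranked by −log10 p, they were in 1 of 1 higher and 3 of 10 lower genes. The split of E2F words thus depended on the ranking, and a link to the knockdown was not tested. H4C12 had 85.7 and 85.5 in shCtrl and 70.9 and 63.0 in shE2F1. H2AC20 and H2BC21 had 27.8 and 32.2 in shCtrl and 5.0 and 26.6 in shE2F1. The 8 lower genes all had summits more than 150 bp apart among the 4 libraries, and of the 7 higher genes all 7 had them within 150 bp. Among the 26 genes with such summits, 7 were thus higher (20% of all promoters with such summits) and 0 lower (16.4%). This filter reads agreement between libraries and not distance to the TSS. At H3C1 the summit lay 1056 to 1090 bp downstream of its TSS, in the peak shared with H4C1.

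By limma none of 41 histone genes passed with shE2F1, and 1 promoter of all 11682 did (0.00856%). At an unadjusted p under 0.05 there were 704 promoters and 1 histone gene, H4C12 (log2 fold change −0.42, SE 0.15, limma adjusted p = 0.798). The median log2 difference was 0.07 over the histone genes and 0.01 over all promoters fitted. The comparisons of shEZH2 and of shE2F1 share their shCtrl libraries.

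**Figure D5:**
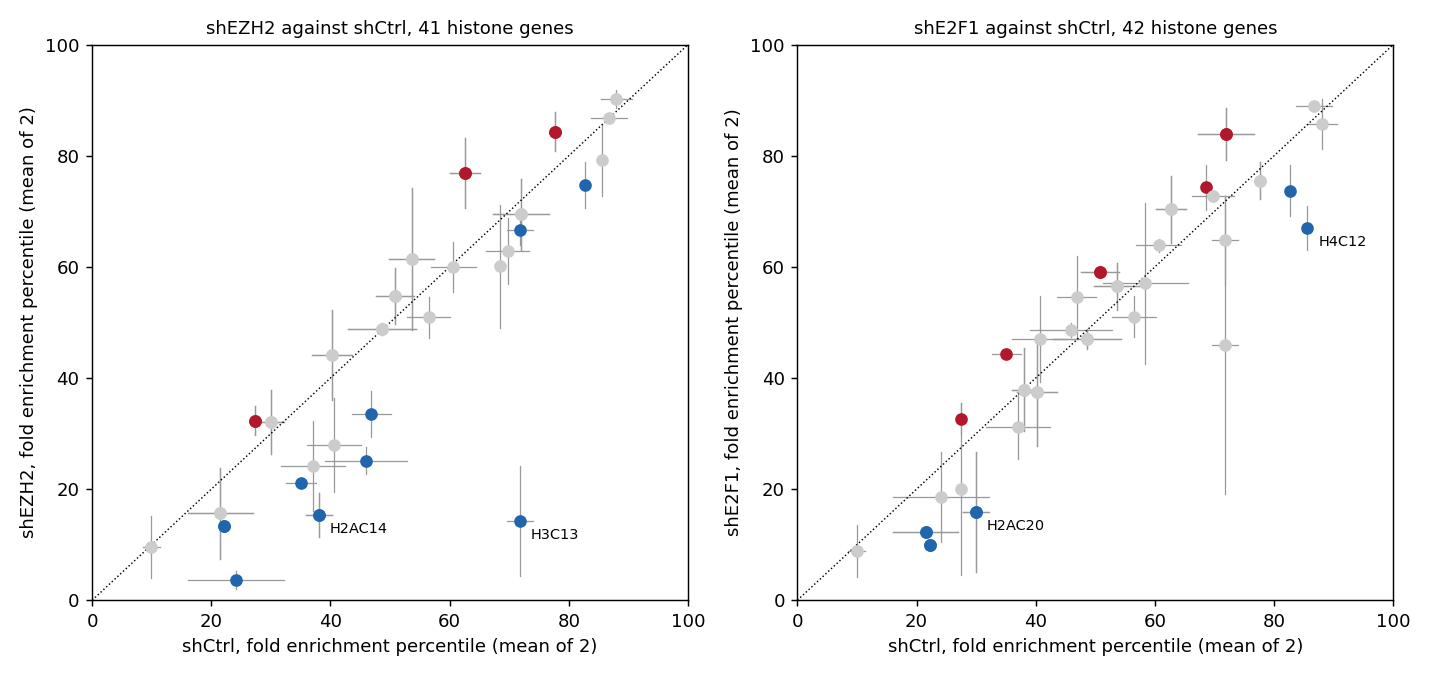
Mean fold enrichment percentile in shEZH2 (left, 41 genes) and shE2F1 (right, 42 genes) on the vertical axis against shCtrl on the horizontal axis. Points are genes (genes that share a peak coincide), lines join the 2 libraries of a group, and red and blue points are above and below both shCtrl libraries in both knockdown libraries. H3C13 is the point farthest below the diagonal with shEZH2, at 71.8 against 14.3.

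The other perturbations had 1 library each and no replicate check. With shSUZ12 32 of 42 histone genes were above both shCtrl libraries, against 53.1% of all promoters, and 3 (H2AC14, H2BC14 and H3C2) were below, against 18.5%. H3C10 had 28.6 with shSUZ12 against 11.3 and 8.5 in shCtrl, and H1-4 and H2BC5 had 45.9 against 27.8 and 27.03. With GSK126, 3 of 42 genes (H2AC21, H2BC6 and H4C16) were more than 10 percentile points above DMSO, against 6.86% of all promoters, and 9 were more than 10 points below, against 15.4%. The 9 were the pairs H2AC12 with H2BC12, H2AC14 with H2BC14, H2AC15 with H2BC15 and H2AC17 with H2BC17, and H3C3. H3C3 had 38.5 in DMSO and 15.7 in GSK126. With the same number of peaks per list the counts were 3 (13.4% of all promoters) and 5 (11.9%) of 41 genes.

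Most genes that make and handle histone mRNA and protein were open. Of 21 factors of histone gene transcription and mRNA processing, 20 were open in all 9 libraries, among them NPAT, the coactivator of histone genes, SLBP, which binds the histone mRNA stem-loop, and HINFP, and CPSF1 had a peak in 8. All 13 histone chaperone genes, such as ASF1A and NASP, were open. Over all protein-coding genes, 58.1% were open in all 9 libraries. Of the 22 replication-independent histone genes found, 9 were open (CENPA, H1-10, H2AJ, H2AX, H2AZ1, H2AZ2, H3-3A, H3-3B and MACROH2A1) and 13 closed. The median shCtrl percentile of the open ones was 61.7 for replication-independent histone genes, 86.0 for the mRNA factors and 85.6 for the chaperones. With shEZH2, 1 of 9 replication-independent genes (H2AZ2) was above both shCtrl libraries and 2 below, and 1 of 20 mRNA factors (CASP8AP2) was above and 9 below. With shE2F1, 3 of 9 replication-independent genes were above and 2 below, and 6 of 21 mRNA factors were above and 2 below. Of 13 chaperone genes, 0 were above and 3 below with shEZH2, and 1 was above and 1 below with shE2F1. Over all promoters tested, 10.6% were above and 29.7% below with shEZH2, and 19.2% and 16.9% with shE2F1. In lists of the same length the shEZH2 shares were 23.6% above and 14.7% below. The counts for these gene groups are given only for the full lists.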

How the data were processed

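The authors aligned ATAC-seq reads with Bowtie2 (end to end, several places reported per read), shifted them for the offset of Tn5 cuts and called peaks in each library, with replicates not pooled. The processing notes give hg38. The peak caller and its version are not given in the sources used here. The deposited lists give each peak's score, summit position, fold enrichment (a ratio of the summit to its local background, by the authors) and the −log10 of p and of q. The lowest deposited −log10 q was 2.00. Read counts per region and normalized coverage were not used here.

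For each gene the peak with the highest fold enrichment overlapping 500 bp on either side of the canonical TSS was taken. Tags and local background were recovered as whole tags for 100% of peaks, within 0.01 in −log10 p, assuming a Poisson p and 1 tag added to both. This is a reconstruction of depth. Genes above or below both shCtrl libraries were counted against all promoters. limma 3.58.1 (R 4.3.3) was fitted on median-centred log2 fold enrichment of 6 libraries, with no pseudocount since only promoters with a peak in all 6 entered, and tested on simulated data. Sequence came from GRCh38 (Python 3.11.15, numpy 2.4.6, pandas 2.3.3, scipy 1.17.1). Words were searched on both strands.

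Genes were named by rule: all H1, closed and partly open genes, the 3 highest and lowest by shCtrl percentile, and the 3 largest differences per knockdown whose groups did not overlap. Others were chosen after their values were seen. Of the comparison lists, 2 genes were not matched by symbol and 1 more is not reported here. The members, lists and words were chosen with earlier results of these data known. Alternatives were other windows, a −log10 q of at least 5, any TSS, lists of the same length, other rankings, normalizations and peaks, shared peaks counted once, a replicate block and leaving out replicates. The summit and tag alternatives were added after the data were seen (summits within 150 bp, ranking by tags). Of luminal markers, 2 of 7 were open in all 9 libraries.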

Additional observations from a re-analysis of the deposited data

How the results depend on the processing

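The count of 41 histone genes open in all 9 libraries was 41 in 250 bp and 1000 bp windows, at a −log10 q of at least 5 and in lists of the same length, 43 with any TSS, and 41 to 42 without 1 replicate. No alternative gave a limma call among histone genes, with shEZH2 or shE2F1, the replicate block included (0 calls each). The lowest adjusted p by limma over these alternatives was 0.0646, with no centring. Of 99 alternative values 72 were close to the value reported and 27 moved, as follows.

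The share of all promoters called follows each count in parentheses. With shEZH2 (6 higher, 11 lower), lists of the same length gave 11 (23.6%) and 4 (14.7%), ranking by −log10 p 0 (4.04%) and 22 (42.2%), ranking by tags 0 (3%) and 22 (45.7%), shared peaks counted once 3 higher (10.3%), and summits within 150 bp 3 lower (28.6%). Leaving out a replicate gave 7 to 14 higher and 17 to 21 lower: 7 (17.8%) and 17 (47.6%) without the first shCtrl library, 11 (23.2%) and 17 (42.1%) without the second, 14 (24%) and 20 (53.9%) without the first shEZH2 library and 10 (26.5%) and 21 (45.5%) without the second. With shE2F1 (7 higher, 8 lower), ranking by −log10 p gave 1 higher (12.4%), ranking by tags 1 higher (12.3%), shared peaks counted once 5 lower (17%) and summits within 150 bp 0 lower (16.4%). Leaving out a replicate gave 8 to 18 higher and 11 to 20 lower: 8 (29.5%) and 13 (32.1%) without the first shCtrl library, 18 (34.9%) and 13 (28.1%) without the second, 16 (43.9%) and 11 (27.3%) without the first shE2F1 library and 15 (31.7%) and 20 (44.8%) without the second. In lists of the same length 0 of 42 genes were below shCtrl with shSUZ12, in place of 3. There 37 of 42 were above, where 32 were reported. The share of all promoters in lists of the same length is not given for shSUZ12, so these counts have no background. They are not read as a result about histone genes, since in the full lists 53.1% of all promoters were above and 18.5% below. With GSK126, 5 genes (11.9%) were below DMSO, in place of 9 (15.4%). The cause of these moves was not tested, except that fewer libraries give more genes without overlap.

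Deviations of same-numbered libraries correlated across promoters at 0.0596, 0.0504 and 0.0161. From 2 libraries per group these values cannot decide whether the replicate numbers mark pairs or batches. With the replicate block, 9 genes were higher (16%) and 13 lower (40.1%) with shEZH2, and 8 (27.4%) and 10 (25.5%) with shE2F1.

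Depth is known only through recovered tags. With 2 libraries per group, and 1 for 3 groups, no difference at a histone gene passed a test, and peaks below the caller's threshold were not detectable.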
